A study of Mus musculus with 6 samples.

Results

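The 10 genes described here encode the main building blocks of the actin and tubulin cytoskeleton and the small proteins that hold free actin. They are the cytoplasmic actins Actb and Actg1, the α-tubulins Tuba1a and Tuba1b, the β-tubulins Tubb2a and Tubb5, the β-thymosins Tmsb4x and Tmsb10, profilin 1 (Pfn1) and cofilin 1 (Cfl1). They were chosen by symbol from the 20673 genes of the deposited tables, and all 10 had enough reads to be tested. The livers came from C57BL/6J mice, which are wild type and inbred, with 1 library per mouse. The 3 control mice ate a regular diet (RD), and the other 3 ate a high-cholesterol diet (HCD), which contains cocoa butter, cholesterol and sodium cholate, for 3 days. Cholate came with the cholesterol in every HCD mouse, so the diet's components cannot be told apart. The mice had no surgery. The study's methods put its C57BL/6J mice at around 12 weeks of age and name both sexes, but they do not say which liver came from which sex.

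Actin monomers assemble into filaments that give hepatocytes their cortex and bile canaliculi, and α- and β-tubulin pair into the dimers of microtubules. Thymosins hold actin monomers in reserve, profilin delivers them to growing filament ends and cofilin severs old filaments. Actin genes are classical targets of serum response factor (SRF), whose cofactor MRTF senses free actin monomers, and tubulin RNAs decay faster when free tubulin dimers build up. Because these proteins are needed in every cell, Actb and, less often, the tubulins serve as reference genes and loading controls. The comparison of RD with HCD therefore bears on whether Actb RNA is at a like level with both diets.

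RD libraries held 13771630 to 23129576 counts, and HCD libraries 13935491 to 18545549. CPM values below are counts brought to a common library total with edgeR's TMM factors, which were 0.886 to 1.07. Hepatocyte markers were abundant in every liver, with Alb at 63316.2 to 105648.6 CPM, so the tissue label held. HCD replicate 1 had Xist at 254.3 CPM and 4 Y-linked genes at 0, while the other 5 livers had Xist at 0 and all 4 Y-linked genes detected. Values without HCD replicate 1 are given beside several of the results it moves. The libraries were named in 1 series for RD and in another for HCD. Whether these names mark separate sets of mice or of RNA is not stated, and such sets and the diets cannot be told apart. The p-values set the difference between the diets against the spread between these livers.

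Tmsb4x was called, at an adjusted p under 0.05, as 1 of the 10 members, where 3.27% of all genes tested were called. Its RNA was at 41.9, 51.3 and 77.4 CPM in RD replicates 1, 2 and 3 and at 151.0, 118.8 and 125.1 CPM in HCD replicates 1, 2 and 3. All 3 HCD livers lay above all 3 RD livers. Tmsb4x (ENSMUSG00000049775, X chromosome), the most abundant actin monomer-binding peptide of many cells, rose 2.32-fold (95% interval 1.62 to 3.31), a log2 fold change of 1.21 (SE 0.23, n = 3 against 3, adjusted p = 0.0307, edgeR's quasi-likelihood test, Benjamini-Hochberg over 13105 genes). DESeq2 gave an adjusted p of 8.27e-06. Leaving out 1 liver kept the log2 fold change between 1.03 and 1.5. The call was lost when RD replicate 1 (adjusted p = 0.121, edgeR), RD replicate 2 (0.141), HCD replicate 1 (0.0567) or HCD replicate 3 (0.0792) was left out. HCD replicate 1, the liver with Xist, had the highest level of this X-linked gene, and the log2 fold change was 1.10 without it. The part of sex in the difference was not tested. Tmsb4x had no near-identical copy among annotated mouse transcripts (at least 200 aligned bases at 95% identity or more), so its 9644 counts over the 6 livers were not open to mixing with a copy at that limit. The 120 bases before its annotated start are shown because this is the promoter of the called member, on the minus strand of chrX:167209219-167209338 (RefSeq, GRCm38.p6). No motif named below lies in this stretch, and it has no capitals.
Tmsb4x: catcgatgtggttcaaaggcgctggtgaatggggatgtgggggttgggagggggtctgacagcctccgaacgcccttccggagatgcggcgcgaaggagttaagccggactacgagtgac

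The second thymosin, Tmsb10 (ENSMUSG00000079523, chromosome 6), was at 10.1, 8.23 and 13.2 CPM in the RD livers and 17.0, 12.1 and 15.0 CPM in the HCD livers. The diets overlapped, because HCD replicate 2 lay below RD replicate 3. Its log2 fold change was 0.48 (SE 0.22, adjusted p = 0.264, edgeR). The ratio of Tmsb4x to Tmsb10, in fragments per kilobase of length (FPKM), does not depend on how libraries are scaled. It was 3.84, 5.80 and 5.47 in the RD livers and 8.25, 9.12 and 7.77 in the HCD livers. The ratio was higher in every HCD liver, by 0.75 on the log2 scale (exact two-sided permutation test, p = 0.1, the smallest that 3 against 3 can give; 0.3 after adjustment over the 6 ratios tested). A coding copy, Gm9844, is 99.3% identical to Tmsb10 over 456 bases, and had 58 counts over the 6 livers against 1330 for Tmsb10.

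Actb (ENSMUSG00000029580, chromosome 5) was at 569.0, 510.2 and 447.2 CPM in RD replicates 1, 2 and 3. In HCD replicates 1, 2 and 3 it was at 615.2, 807.7 and 857.7 CPM. All HCD livers lay above all RD livers, and HCD replicate 1 came closest to the RD range. The mean was 508.8 ± 60.9 CPM (SD, n = 3) with RD and 760.2 ± 128 CPM with HCD, a fold of 1.49 (95% interval 1.12 to 1.99) and a log2 fold change of 0.58 (SE 0.18). With edgeR it was not called (unadjusted p = 0.0119, adjusted p = 0.125, quasi-likelihood test). DESeq2 gave a log2 fold change of 0.57 with an adjusted p of 0.0277 and called it. Leaving out 1 liver gave 0.48 to 0.71, with the highest value and an adjusted p of 0.0579 (edgeR) without HCD replicate 1. The call thus turned on the tool, while the direction was the same in every fit with all livers or with 1 left out.

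Actg1 (ENSMUSG00000062825, chromosome 11), whose protein differs from β-actin in a few residues near the amino end, was at 114.2, 76.3 and 77.3 CPM with RD. With HCD it was at 132.0, 89.6 and 93.6 CPM. The diets overlapped, and replicate 1 was the highest liver of each diet. The log2 fold change was 0.24 (95% interval -0.25 to 0.72, adjusted p = 0.563, edgeR), and it was 0.04 without HCD replicate 1 and 0.45 without RD replicate 1. The ratio of Actb to Actg1 in FPKM was 4.95, 6.63 and 5.74 with RD and 4.63, 8.95 and 9.09 with HCD. This ratio overlapped between the diets, with a log2 difference of 0.33 (exact two-sided permutation test, p = 0.4; 0.4 after adjustment over 6 ratios). The overlap came from HCD replicate 1, without which the difference was 0.65 and both other HCD livers lay above all RD livers, while without HCD replicate 3 it was 0.17. Actg1 has 7 processed pseudogenes at 95% identity or more, and reads from them cannot be told apart where they match.

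The 2 β-tubulins went in opposite directions. Tubb2a (ENSMUSG00000058672, chromosome 13) was at 103.6, 149.9 and 150.1 CPM with RD and at 177.8, 165.9 and 245.4 CPM with HCD. Tubb5 (ENSMUSG00000001525, chromosome 17) was at 85.6, 95.02 and 106.5 CPM with RD and at 69.0, 79.5 and 80.7 CPM with HCD. Neither gene overlapped between the diets, with Tubb2a higher and Tubb5 lower in every HCD liver. The log2 fold change of Tubb2a was 0.55 (95% interval 0.07 to 1.02, adjusted p = 0.186, edgeR), and that of Tubb5 was -0.33 (95% interval -0.63 to -0.02, adjusted p = 0.214, edgeR), so neither was called, nor was either by DESeq2 (adjusted p = 0.102 and 0.264). With 1 liver left out Tubb2a lay between 0.35 (without HCD replicate 3) and 0.65, and Tubb5 between -0.40 and -0.24. With the length trend removed Tubb2a was at 0.40. The ratio of Tubb2a to Tubb5 in FPKM was 2.50, 3.26 and 2.91 in the RD livers and 5.32, 4.31 and 6.29 in the HCD livers. All HCD livers had a higher ratio than all RD livers, by 0.87 on the log2 scale (exact two-sided permutation test, p = 0.1, the smallest possible; 0.3 after adjustment over 6 ratios). Tubb2b, a neighbouring gene that is 98.7% identical to Tubb2a over 1056 bases, was at 3.12, 1.40 and 0.217 CPM with RD and 4.60, 3.79 and 11.3 CPM with HCD. It too did not overlap between the diets, with a log2 fold change of 2.05 (adjusted p = 0.187 in edgeR, 0.0268 in DESeq2). Tubb2b was singled out after its values were seen, since it can share reads with Tubb2a. It had 376 counts in all against 16716 for Tubb2a, and Tubb5 had no such copy.

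The promoters of Tubb2a and Tubb5 are shown because the 2 genes of 1 family differed in direction, and that of Actg1 because, among the 9 members with a promoter window to search, it alone held a CArG box, the binding motif of SRF. Actb was not searched. The windows run 120 bases up to the annotated start, all on the minus strand of GRCm38.p6 (RefSeq), at chr13:34078009-34078128, chr17:35838302-35838421 and chr11:120348496-120348615. Capitals mark TGACGTCA, the full cAMP response element, and TATAAA in Tubb2a, CCAAT in Tubb5, and CCAAT and the CArG box in Actg1.
Tubb2a: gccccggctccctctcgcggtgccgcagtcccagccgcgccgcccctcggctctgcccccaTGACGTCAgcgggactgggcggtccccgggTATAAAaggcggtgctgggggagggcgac
Tubb5: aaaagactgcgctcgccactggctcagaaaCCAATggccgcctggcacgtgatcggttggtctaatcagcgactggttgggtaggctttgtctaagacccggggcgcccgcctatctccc
Actg1: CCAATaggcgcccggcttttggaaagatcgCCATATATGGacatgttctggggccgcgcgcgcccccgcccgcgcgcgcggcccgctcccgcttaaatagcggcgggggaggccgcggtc

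In Tubb2a the TATAAA started at position -29 and TGACGTCA at -59 from the annotated start, and in Actg1 the CArG box started at -90. RefSeq promoter windows, from 250 bases before to 50 bases after a start, were at hand for 9 of the 10 members, in 11 windows, and Actb was without one. Both strands were searched. The CArG box was in a window of 1 member and in 1.63% of all 32851 windows, TGACGTCA in 1 member (1.79% of windows), and TATAAA in 1 member (13.6%). CCAAT was in 4 members (37.4% of windows), and GGGCGG, the letters read by Sp1, was in all 9 (35.7%). These motifs were chosen after the sequences were read, and a match is a description of the letters only.

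The 2 α-tubulins showed no difference beyond their spread. Tuba1b (ENSMUSG00000023004, chromosome 15) was at 29.9, 40.3 and 45.7 CPM with RD and 40.1, 46.5 and 45.6 CPM with HCD, a log2 fold change of 0.19 (95% interval -0.21 to 0.59, adjusted p = 0.574, edgeR). Tuba1a (ENSMUSG00000072235, chromosome 15) was at 2.93, 3.70 and 6.60 CPM with RD and 6.82, 4.07 and 5.59 CPM with HCD, a log2 fold change of 0.31 (95% interval -0.54 to 1.17, adjusted p = 0.674, edgeR). Both overlapped between the diets. Leaving out 1 liver moved Tuba1b to between 0.03 (without RD replicate 1) and 0.33 (without RD replicate 3), and Tuba1a to between 0.09 and 0.73 without the same livers. The interval of Tuba1a, the member with the fewest counts (529 over 6 livers), also holds a 2-fold rise, so a rise of that size cannot be told from none at this depth and spread. Tuba1a and Tuba1b are 98.4% identical over 1328 bases and each has 12 near-identical genes, pseudogenes included, among them Tuba1c. Their separate values are therefore uncertain.

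Profilin and cofilin had log2 fold changes under 0.3, and neither was called. Pfn1 (ENSMUSG00000018293, chromosome 11) was at 186.6, 183.1 and 192.6 CPM with RD and at 217.1, 215.5 and 249.5 CPM with HCD. The diets did not overlap, and the log2 fold change was 0.28 (95% interval -0.02 to 0.58, adjusted p = 0.269, edgeR). Cfl1 (ENSMUSG00000056201, chromosome 19) was at 179.6, 186.9 and 178.9 CPM with RD and at 210.7, 184.0 and 241.8 CPM with HCD, a log2 fold change of 0.22 (95% interval -0.11 to 0.55, adjusted p = 0.416, edgeR). HCD replicate 2 lay within the RD range of Cfl1. Cfl1 was at 0.11 on the log2 scale when HCD replicate 3 was left out and at 0.32 when HCD replicate 2 was. Relative to Actb, in FPKM, both were lower on average with HCD, by -0.30 (Pfn1) and -0.36 (Cfl1) on the log2 scale, but the ratios overlapped between the diets (exact two-sided permutation test, p = 0.2 for each; 0.3 after adjustment over 6 ratios). The ratio of Tmsb4x to Actb also overlapped, at 0.144, 0.196 and 0.338 with RD and 0.480, 0.288 and 0.285 with HCD (exact two-sided permutation test, p = 0.3; 0.36 after adjustment).

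**Figure D1:**
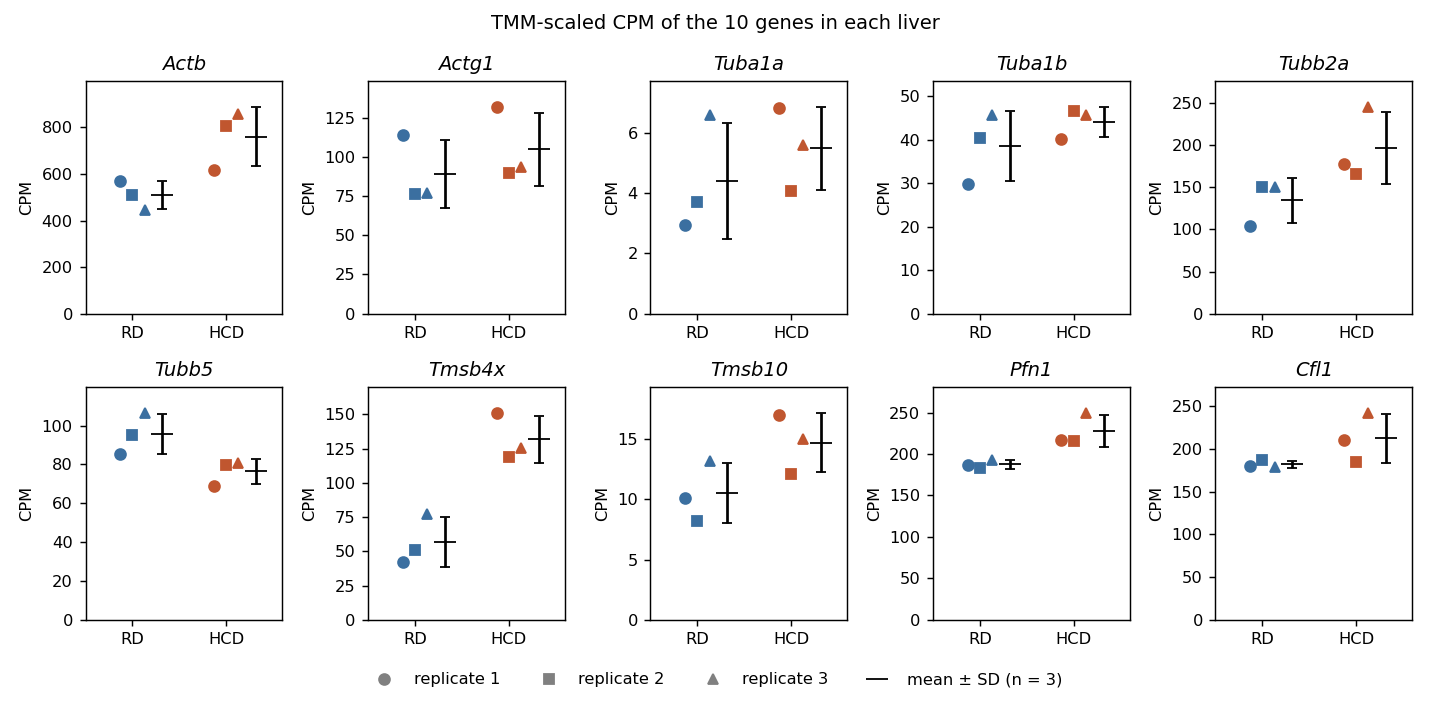
TMM-scaled CPM (y axis, linear from 0) of the 10 genes in each of the 3 RD and 3 HCD livers, with the mean ± SD (n = 3) beside the points and 1 marker shape per replicate number. The HCD points of Actb, Tubb2a, Tmsb4x and Pfn1 all lie above the RD points, those of Tubb5 all lie below, and the diets overlap for the other 5 genes.

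Of the 10 members, 9 had a log2 fold change above 0 and 1 below. One member was called higher and 0 lower, where 1.95% of the 13105 genes tested were called higher and 1.32% lower (3.27% in all). With an unadjusted p under 0.05 in edgeR there were 3 higher members and 1 lower, beside 11.1% and 9.81% of all genes. DESeq2 called 2 members, Tmsb4x and Actb, beside 6.97% of its genes. The diets did not overlap for 4 members that were higher and 1 that was lower, beside 14.0% and 13.7% of all genes. The median log2 fold change of the members was 0.30, against 0.01 for all genes tested. Without HCD replicate 1 all 10 genes kept their direction, and those that moved most were Actg1 (from 0.24 to 0.04), Tuba1a (from 0.31 to 0.12), Actb (from 0.58 to 0.71) and Tmsb10 (from 0.48 to 0.36). Shorter genes read higher with HCD in these libraries, with a slope of log2 deviation on log2 gene length of 0.042 to 0.067 in the RD livers and -0.012 to -0.088 in the HCD livers. With that trend removed the median of the members was 0.20, Actb was at 0.53 (adjusted p = 0.192, edgeR), and Tmsb4x at 1.05, which was no longer called (adjusted p = 0.0576).

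By level per length, Actb was the highest of the members with both diets, at 277.2 ± 29.9 FPKM (SD, n = 3) with RD and 420.8 ± 68.2 FPKM with HCD. That put it 249th with RD and 196th with HCD among 20673 genes by mean FPKM. Over all 6 livers the order went on with Tubb2a (151.8 FPKM), Pfn1 (127.2), Cfl1 (123.4), Tmsb4x (101.8), Actg1 (53.9), Tubb5 (38.1), Tuba1b (32.5), Tmsb10 (14.6) and Tuba1a (4.07). Actb lay above Tubb2a in every liver of each diet. Tubb2a overlapped with Pfn1, and Pfn1 with Cfl1, in both diets, so the order of these 3 was not set. Tmsb4x lay below Cfl1 in every RD liver and overlapped with it in the HCD livers. Tmsb4x overlapped with Actg1 in the RD livers and lay above it in every HCD liver. By mean FPKM Tmsb4x went from 1005th with RD to 529th with HCD.

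Actb was set beside 28 genes that are often used as reference genes. None of the 28 was called by edgeR, where 3.27% of all genes were, and DESeq2 called 1, Rpl32, where it called 6.97%. An unadjusted p under 0.05 (edgeR) was reached by 6 of the 28, a share near the 20.9% of all genes tested, so by this count the panel did not stand out as steadier than other genes. Their log2 fold changes ran from -0.58 (Tbp, a general transcription factor) to 0.56 (Rpl32, a ribosomal protein), with a median of -0.07 and a median absolute value of 0.24. The absolute log2 fold change of Actb, 0.58, was exceeded by 1 of the 28, Tbp, and by a margin far under either gene's error. Of the 9117 tested genes that averaged at least 5 CPM, 83.8% had a smaller absolute log2 fold change than Actb. Its spread between livers of 1 diet, as the SD of log2 CPM, was 0.22 against a median of 0.17 in the 28 (7 larger, 21 smaller), and 49.0% of the 9117 genes had a smaller SD. The median SD of those 9117 genes was 0.22, above that of the 28. Without HCD replicate 1 the SD of Actb was 0.15. These ranks are a description, as the 29 genes were not tested against each other.

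A second measure needs no library scaling. For each gene, the log2 ratio to every other gene of the panel was taken in each liver, and the SDs of these ratios over the 6 livers were averaged. This mean SD was 0.47 for Actb against a median of 0.34, and 4 of the 28 had a larger one, Gapdh with the largest. The lowest values were those of Pgk1 (0.27), Eef1a1 (0.28) and Atp5b (0.28). Eef1a1, a translation elongation factor, was at 3957.7, 3750.0 and 4330.1 CPM with RD and 3971.8, 4398.0 and 4048.3 CPM with HCD, a log2 fold change of 0.04 (95% interval -0.34 to 0.43). Atp5b, a subunit of ATP synthase, was at 1114.2, 1122.2 and 1211.9 CPM with RD and 1193.4, 1026.0 and 1171.0 CPM with HCD, a log2 fold change of -0.02 (95% interval -0.37 to 0.32). Both overlapped between the diets. Polr2a, the large subunit of RNA polymerase II, had the smallest absolute log2 fold change of the panel (-0.02, 95% interval -0.38 to 0.34) and an SD within a diet of 0.20. These intervals still allow differences of over 0.3 on the log2 scale, so 3 livers per diet do not show that a gene is stable. Eef1a1 has 10 near-identical pseudogenes, and Polr2a and Atp5b have none at this limit.

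Of the other common choices, Hprt had a log2 fold change of 0.29, B2m 0.26, Rplp0 0.26 and Ppia 0.09, and all 4 overlapped between the diets. Without HCD replicate 1 Hprt was at 0.47, Rplp0 at 0.44 and B2m at 0.36, without HCD replicate 3 Hprt was at 0.17, Rplp0 at 0.02 and B2m at 0.11, and with the length trend removed they were at 0.10, 0.11 and 0.01. Ppia and Rplp0 are uncertain for another reason. Ppia matches 21 other annotated genes at 95% identity or more, among them the pseudogene Gm10123, which is 100% identical over 490 bases and had 15828 counts against 25500 for Ppia. Rplp0 matches 5 pseudogenes, among them Gm8730, 98.7% identical over 942 bases, with 14834 counts against 28494. Hprt and B2m had no such copy. Tbp was at 8.03, 9.98 and 8.16 CPM with RD and 5.76, 6.27 and 5.43 CPM with HCD, with no overlap and a log2 fold change of -0.58 (adjusted p = 0.176, edgeR). The ratio of Actb to Tbp would thus carry both differences. Gapdh, a glycolytic enzyme and the usual alternative to Actb, was at 3.37, 4.54 and 2.52 CPM with RD and 3.49, 0.896 and 4.05 CPM with HCD. These levels rest on 325 counts over 6 livers, and HCD replicate 2 had 13. The highest Gapdh liver was 5.06-fold above the lowest, against 1.92-fold for Actb. Gapdh has 43 near-identical annotated genes, 40 of them with pseudogene transcripts, and the coding copy Gm3839 alone had 1067 counts. No source used here says how reads matching several genes were counted, so the level of Gapdh RNA is uncertain.

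**Figure D2:**
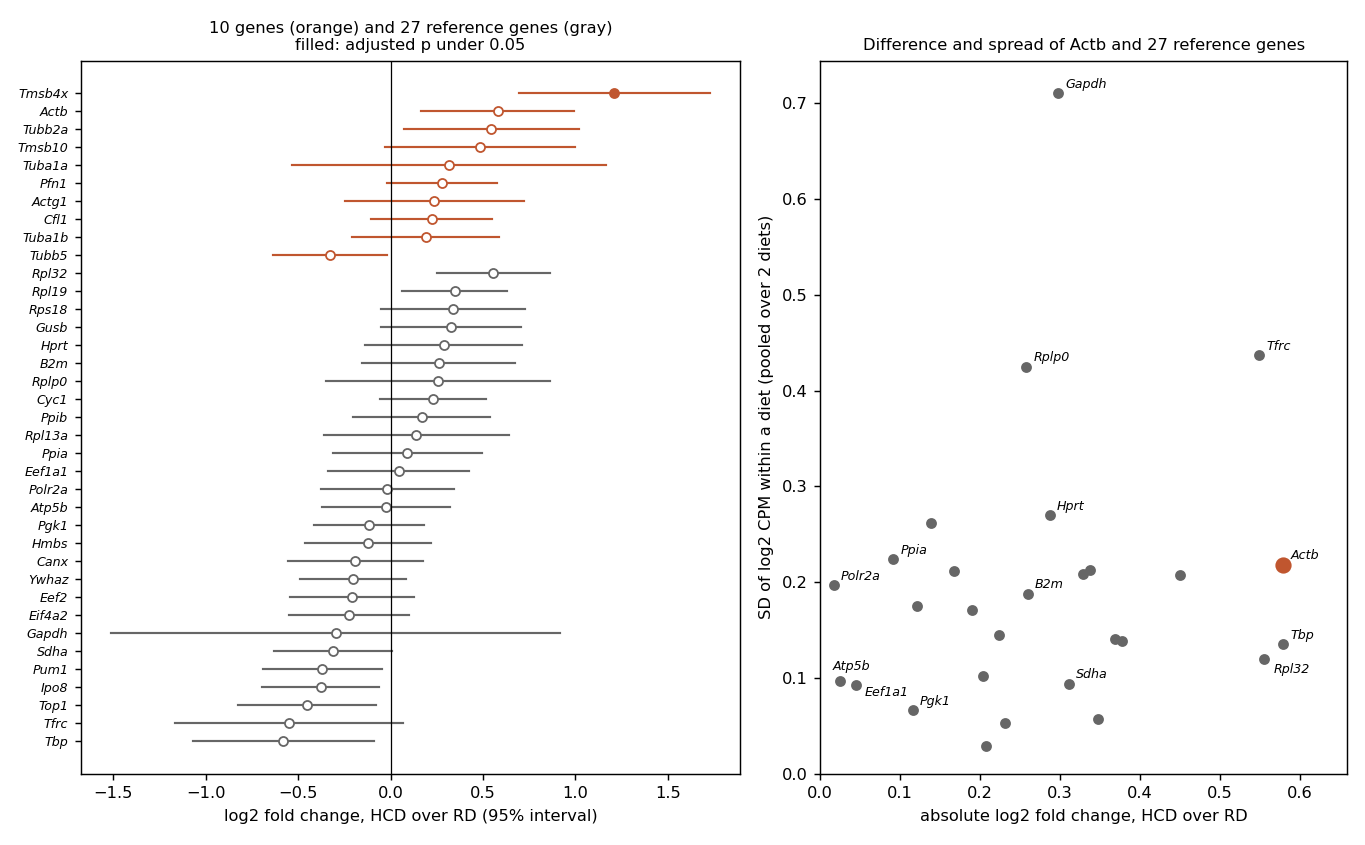
Left, log2 fold change of HCD over RD (x axis) with 95% intervals for the 10 genes (orange) and 27 of the 28 reference genes (gray), where the filled point, Tmsb4x, has an adjusted p under 0.05. Right, absolute log2 fold change against the SD of log2 CPM within a diet (log2 units), with Actb at 0.58 and 0.22 on the right-hand side and Eef1a1 and Atp5b near the lower left corner.

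Scaling every library by its Actb count shows what the difference in Actb does to other readouts. A gene at the same level with both diets would read 0.669-fold with HCD when divided by Actb. Scaled this way, edgeR called 100 genes higher and 2758 lower, against 255 higher and 173 lower with TMM. The median log2 fold change over all genes was -0.56, against 0.01 with TMM, and 85.3% of the genes tested lay below 0. Of the genes called higher with TMM, 84 of 255 were still called, and of those called lower all 173 were. Of the members, Tubb5 was then called lower, at -0.92 (adjusted p = 0.0211, edgeR), and Tmsb4x was at 0.63 and not called (adjusted p = 0.161). The other 7 members read between -0.41 and -0.06, where their TMM values lay between 0 and 0.58. This scale lowered genes by about the difference in Actb, though not all by the same amount. Scaled by the mean of the 28 reference genes, 348 genes were called higher and 139 lower with a median of 0.07, and by Gapdh 22 and 3 with a median of 0.84.

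**Figure D3:**
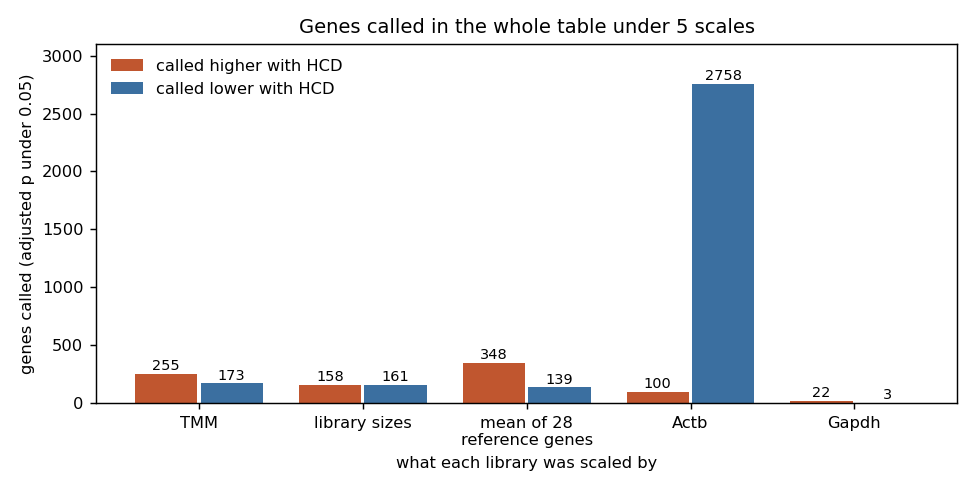
Number of genes called higher (orange) and lower (blue) with HCD at an adjusted p under 0.05 (y axis, linear from 0) when libraries were scaled by TMM, by library size, by the mean of 28 reference genes, by Actb or by Gapdh. The bar of 2758 genes called lower stands out under scaling by Actb, beside 173 under TMM.

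The 5 genes whose log2 CPM followed that of Actb most closely over the 6 livers were Fcf1 (Pearson's r 0.9905), Ifrd2 (0.9904), Eif4a-ps4 (0.987), Mrps14 (0.986) and Gm20075 (0.986). They were taken from 9108 genes averaging at least 5 CPM, of which 69 had an r of 0.95 or more. All points share the 6 libraries and their scaling, and both diets are pooled, so these values are a description. Ifrd2 was at 43.9, 42.1 and 33.7 CPM with RD and 52.9, 70.5 and 71.7 CPM with HCD, the same rank order of livers within HCD as Actb and the same within RD. Ifrd2 was picked for its likeness to Actb in these livers, so this order and its higher level with HCD follow in part from that choice. Its log2 fold change was 0.71 (adjusted p = 0.0617, edgeR). It was called by DESeq2 (adjusted p = 0.0137), and by edgeR with upper-quartile factors (0.0474), with no filter on low counts (0.0412) or without HCD replicate 1 (0.0404), so its call turned on the setting. None of the 10 members and none of the 28 reference genes was among the 5, and members had been left out of the search.

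The genes that act on actin and tubulin were taken from 7 lists. The largest, 33 genes of actin filament turnover (the Arp2/3 complex, capping, severing and coronin proteins), had 22 genes above 0 and 11 below, a median of 0.15 and 0 called by edgeR. An unadjusted p under 0.05 was reached by 6 that were higher and 1 that was lower, beside 11.1% and 9.81% of all genes. DESeq2 called 2, Capg and Coro1a, a share near the 6.97% it called of all genes. Coro1a, a coronin of blood cells, was at 2.84, 3.28 and 4.95 CPM with RD and 10.7, 6.41 and 8.51 CPM with HCD, and Capg, which caps filament ends in macrophages, was under 5 CPM in every liver. Both were named after their values were seen, and Coro1a is also among the leukocyte markers below.

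Of 29 genes for actin crosslinking and motors, 21 were above 0 and 8 below (median 0.26), with 1 called higher and 1 lower, beside 1.95% and 1.32% of all genes, and an unadjusted p under 0.05 for 6 that were higher and 4 that were lower, beside 11.1% and 9.81%. Tpm2, a tropomyosin that lies along actin filaments and is best known from muscle, was at 1.83, 3.07 and 1.65 CPM with RD and 23.8, 6.82 and 14.4 CPM with HCD. Every HCD liver was above every RD liver, although the HCD livers differed by over 3-fold among themselves. Tpm2 rose 7.0-fold (log2 fold change 2.81, SE 0.47, adjusted p = 0.0246, edgeR). Its adjusted p was 0.0696 to 0.114 with each RD liver left out in turn and 0.0707 without HCD replicate 3. Without HCD replicate 1, the liver with the highest level, the log2 fold change of Tpm2 was 2.30 (adjusted p = 0.0406, edgeR). Vcl, vinculin, which ties actin filaments to adhesion sites, was at 21.1, 20.1 and 20.7 CPM with RD and 10.7, 13.0 and 11.5 CPM with HCD. These values did not overlap and were tight within each diet. Vcl fell by 0.82 on the log2 scale, to 0.567-fold (SE 0.15, adjusted p = 0.0303, edgeR), and it was no longer called when any liver but HCD replicate 2 was left out (adjusted p 0.0596 to 0.142) or with the length trend removed (0.0671), nor by limma on log2 FPKM (0.0628 and 0.0654 with pseudocounts of 1 and 0.1). DESeq2 called 3 of this list higher (Tpm2, Anxa2 and S100a11) and 3 lower (Vcl, Myh9 and Myh10), beside 6.97% of all genes in either direction. Myh9 and Myh10, the heavy chains of nonmuscle myosin, had log2 fold changes of -0.65 and -1.02 and edgeR adjusted p of 0.0559 and 0.0592, and were named after their values were seen.

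The remaining lists had 1 call between them. Of 6 other actin and actin-related genes tested, 4 were above 0 (median 0.18), of 9 other tubulins 5 (median 0.005), of 18 genes of tubulin dynamics 9 (median 0.03) and of 14 chaperone genes for actin and tubulin 7 (median -0.01). In these 4 lists edgeR called 0 genes, with an unadjusted p under 0.05 for 5 higher and 2 lower genes, and DESeq2 called 1, Tubb2b. The shares of all genes were again 11.1%, 9.81% and 6.97%. Of 14 SRF and MRTF target genes 9 were above 0 (median 0.14) and 1, Vcl, was called lower, beside 1.32% of all genes, with 1 higher and 1 lower gene reaching an unadjusted p under 0.05. DESeq2 called 2 of the 14, Fos higher and Vcl lower, beside 6.97% of all genes. The median of all genes tested was 0.01, and no list was compared with other lists by a test.

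Thymosins, Coro1a and Capg are abundant in blood cells and macrophages, and whole liver holds all of its cell types. In such bulk RNA a change in the number of cells of a type and a change in RNA per cell cannot be told apart. Of 44 tested markers of Kupffer cells, leukocytes, stellate cells, sinusoidal endothelium and bile duct cells, 42 were above 0 and 2 below, with a median log2 fold change of 0.64, where 6643 of all 13105 genes tested were above 0. edgeR called 0 of them. At an unadjusted p under 0.05 there were 11 higher, beside 11.1% of all genes, and DESeq2 called 5 (Clec4f, Cd5l, Coro1a, Cdh5 and Dnase1l3), beside 6.97%. Summed over the 5 types they were at 634.9 to 768.8 CPM with RD and 864.7 to 1196.1 CPM with HCD, with no overlap. Their part in the Tmsb4x difference was not tested.

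Kupffer cell markers summed to 121.7 to 195.5 CPM with RD and to 365.7, 325.1 and 154.6 CPM in HCD replicates 1, 2 and 3. HCD replicate 3 was within the RD range for these markers. Tmsb4x in that liver was at 125.1 CPM, above every RD liver, and the part of Kupffer cells in its level was not tested. Leukocyte markers summed to 22.4 to 40.0 CPM with RD and 43.2 to 62.2 CPM with HCD, with Cd3e and Itgam at 0 in at least 1 liver. Stellate cell and fibroblast markers were at 240.4 to 250.3 CPM with RD and 258.4 to 382.1 with HCD, again without overlap. Sinusoidal endothelial markers (140.0 to 245.3 with RD, 208.4 to 320.1 with HCD) and bile duct markers (37.6 to 93.2 and 65.9 to 98.6) overlapped. Of 10 hepatocyte markers 5 were above 0 and 5 below, from -0.36 (Hnf4a) to 0.86 (Trf) with a median of 0.10. None was called by edgeR, and the diets did not overlap for 3 that were higher and 2 that were lower, beside 14.0% and 13.7% of all genes. The 3 higher ones (Ttr, Trf and Asgr1) had an unadjusted p under 0.05, beside 11.1%, and were called by DESeq2, beside 6.97%.

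**Figure D4:**
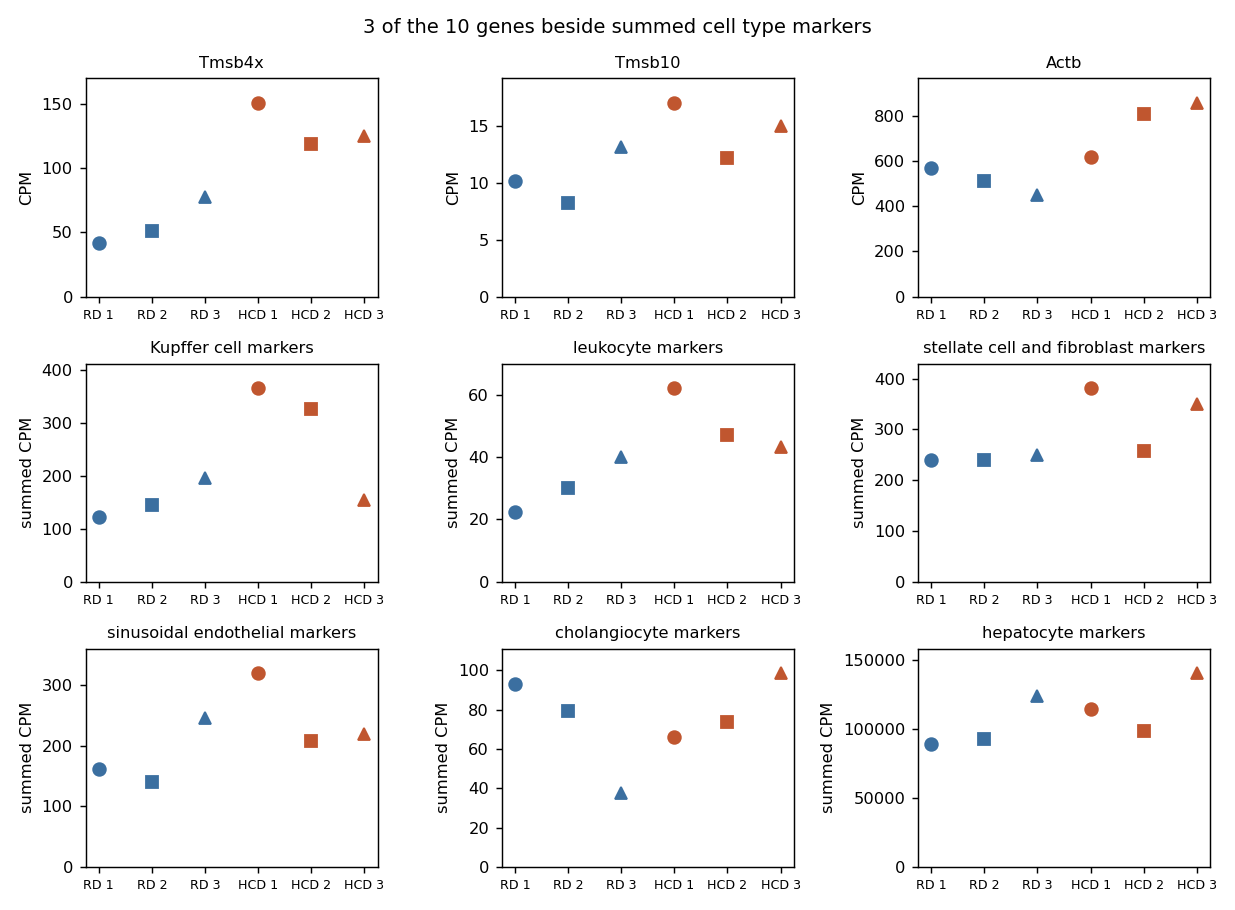
CPM of Tmsb4x, Tmsb10 and Actb and summed CPM of markers of 6 liver cell types (y axes, linear from 0) in each RD (blue) and HCD (orange) liver. Kupffer cell markers are high in HCD replicates 1 and 2 and at 154.6 CPM in HCD replicate 3. Tmsb4x, the leukocyte markers and the stellate cell and fibroblast markers lie above every RD liver in all 3 HCD livers.

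The globins Hba-a1 and Hbb-bs, made by red cells, were the only marker genes called by edgeR, both higher with HCD (log2 fold change 2.41 and 2.28, adjusted p = 0.0217 and 0.0223). They were 2 of 5 red cell markers, where 1.95% of all genes were called higher. The globins Hba-a2 and Hbb-bt were also above 0 and not called by edgeR, while Alas2, an enzyme of heme synthesis in red cell precursors, was at -0.70 with overlap between the diets. DESeq2 called 3 of the 5 red cell markers, all higher, beside 6.97% of all genes in either direction. Summed red cell markers were at 137.7 to 238.8 CPM with RD and at 176.5, 467.7 and 451.9 CPM in HCD replicates 1, 2 and 3. Actb also had its highest levels in HCD replicates 2 and 3, and blood cells carry Actb RNA. The part of blood in the Actb difference was not tested. Cell cycle markers had a median of -0.07 over 8 tested genes, with 0 called by edgeR or DESeq2 and 1 higher at an unadjusted p under 0.05.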

How the data were processed

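RNA of 6 livers (3 RD, 3 HCD) was sequenced by Novogene. The authors deposited raw read counts per gene and FPKM values (fragments per kilobase of gene and per library total), and also their own log2 fold changes and p-values, which were not used. The submitters' processing notes name STAR, HTSeq, DESeq2, edgeR and the GRCm39 build, without roles. Gene lengths implied by the FPKM were within 1% of GENCODE M21 for 95.4% of the 11425 genes with 50 counts or more. Coordinates are therefore given only for the promoter windows printed above, which are from RefSeq on GRCm38.p6. Library kit and strand are not given in the sources used here.

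Diets were taken from the sample labels. Counts were tested in R 4.3.3 with edgeR 4.0.16 (filterByExpr, TMM, glmQLFit and glmQLFTest, no covariate, 13105 of 20673 genes), with Benjamini-Hochberg adjustment and calls at an adjusted p under 0.05. FPKM gave levels between genes and ratios, tested by exact permutation. Of these tests only the edgeR fit was also run on simulated counts, with an outcome not reported here. Alternatives were DESeq2 1.42.0, limma 3.58.1 on log2(FPKM + 1) and log2(FPKM + 0.1), other scale factors and filters, a loess length correction (span 0.5) and each liver left out. Copies were found with minimap2 2.31.

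Named are all members, called genes of the cytoskeleton lists with a mean of at least 5 CPM, 6 common reference genes, the 3 with the smallest difference and the 5 most like Actb. Other genes were named after their values were seen, mostly because a tool called them. The values of 1 reference gene are not reported here, although it is counted in the panel. The members and lists were chosen with earlier results of these data known.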

Additional observations from a re-analysis of the deposited data

How the results depend on the processing

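Of the results recomputed under the alternatives, 423 held (tested values by direction and side of the threshold, counts within 1.5 times, the SD within its own size), 22 lost and 8 gained significance, 17 counts moved by over 1.5 times and 22 values changed sign. Against 428 genes called, DESeq2 called 992, edgeR without the filter on low counts 649, with the length trend removed 251, and scaled by Actb 2858 or by Gapdh 25. Leaving out 1 liver gave 39 to 387 called genes and 0 to 1 called members. Members called were 2 with DESeq2, where Actb had a log2 fold change of 0.57, and 0 with the length trend removed. A scale of 1 gene moved genes mostly in 1 direction, but not by equal amounts. The median log2 fold change over all genes became -0.56 with Actb and 0.84 with Gapdh. With Gapdh, Tuba1a went from 0.31 to 0.85 and Tubb5 from -0.33 to 0.53. Values opposite in sign to their shift, and nearer 0 than it, changed sign. Scaled by Actb, these were Actg1 (-0.27), Tuba1a (-0.26), Tuba1b (-0.41), Tubb2a (-0.056), Tmsb10 (-0.076), Pfn1 (-0.30) and Cfl1 (-0.34). Scaled by Gapdh, it was Tubb5 (0.53). Reference genes near 0 also changed sign. Polr2a was at 0.017 with upper-quartile factors and 0.084 with the length trend removed, and Atp5b at 0.0097 and 0.0092. Eef1a1 was at -0.018 with library sizes alone and -0.026 with the length trend removed. With 1 liver left out, Polr2a lay between -0.15 and 0.11, Atp5b between -0.066 and 0.041, Eef1a1 between -0.0016 and 0.10, Gapdh between -0.64 and 0.12 and Ppia between -0.080 and 0.19. The cause of the changes outside the 1-gene scales was not tested.

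Whether the replicate numbers mark pairs of mice is not stated. The correlations of same-numbered deviations between the diets were -0.0761, 0.0879 and -0.0413, within the range of differently numbered ones (-0.107 to 0.133). Deviations from the mean of so few livers depend on each other within a diet, so these values cannot decide whether the livers were paired. A fit with the replicate number as a block called 136 genes and 0 members.

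With 3 livers per diet and a biological coefficient of variation of 27.8%, intervals of the members were wide, and the shares of depth and of spread between livers in that limit were not compared.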
